A study of Mus musculus with 16 samples.

Results

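Chemokines and their receptors were followed through the chromatin accessibility of small cell lung cancer (SCLC) cells. The members are the protein-coding genes of the mm10 annotation whose symbol is Cxcl, Ccl, Cxcr or Ccr with a number, together with Cx3cl1, Cx3cr1, Xcl1, Xcr1 and Ackr1 to Ackr4, which gives 60 genes. Every deposited peak whose centre had the start site of one of these genes as its nearest protein-coding start site was assigned to that gene, and 127 of the 80367 deposited peaks were. Of these 127 peaks, 70 were in the list of regions that were more accessible in GFP-high cells (called opened here) and 57 in the list of regions that were more accessible in GFP-neg cells (called closed).

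The cells came from the tumors of TKO;Hes1 GFP/+ mice, which carry the fl/fl alleles of Rb, p130 and p53 and in which an adenovirus that expresses Cre was given into the airways and GFP is made from 1 allele of Hes1, a target of Notch signaling. Both groups therefore came from the same mice, given the same virus, and were separated by the sorted level of GFP. GFP-high cells are the non-neuroendocrine (non-NE) SCLC cells and GFP-neg cells the neuroendocrine (NE) ones. Tumors were pooled within each mouse, and the labels give 4 pairs of samples from 3 mice, with 1 pair being a technical replicate, as 8 libraries that were each read on 2 lanes. ATAC-seq, which reads where the Tn5 transposase can enter DNA, was compared between the groups by the authors, who kept peaks with an adjusted p under 0.001 and a change of over 2-fold. The files used here hold 1 mean normalized count per listed peak, taken over all libraries of both groups, so values by library, their spread and the depth of each library are not known. In these sorted bulk samples, a region that was more accessible in every cell and one that was accessible in more of the cells cannot be told apart.

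Chemokines are small secreted proteins that guide the movement of leukocytes and other cells. They are named after the spacing of their first cysteines (CXC, CC, CX3C and XC), and they signal through G protein-coupled receptors that are named after the ligands they bind. The atypical receptors (Ackr) bind chemokines without classical G protein signaling and scavenge or transport them. In the lung, epithelial cells make several of these ligands and recruit neutrophils, monocytes and lymphocytes with them.

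The regions at start sites are shown first, because a peak there is the one that is least open to doubt about its gene. In all, 9 regions are printed on the strand of the gene, 5′ to 3′, in lower case, without annotated exons and with at most 300 bases each. Capitals mark exact matches, on either strand, to 1 of 7 short strings: TGANTCA (AP-1), TGTTTAC (FOX), GGAATG (TEAD), CACTTGA (NKX2), GGANNNTCC (NF-kB), GAAANNGAA (ISRE, the interferon-stimulated response element) and TTGCNNAA (C/EBP). A match is a description of the letters and not evidence of binding. The opened peak at the start of Cxcl15 (chr5:90794175-90794474, plus strand, mm10) holds a C/EBP string. That of Cxcl17 (chr7:25412927-25413226, minus strand) holds an NKX2 and a TEAD string, that of Cxcl5 (chr5:90758272-90758571, plus strand) an AP-1 string and that of Ackr3 (chr1:90203801-90203979, plus strand) a C/EBP string. The shown stretch of the Cxcr4 peak (chr1:128592291-128592590, minus strand) holds none of the 7, and that of the closed Cxcl13 peak (chr5:95956887-95956950, plus strand) holds a TEAD string. Over all 10 opened start site peaks, the stretch outside exons, of at most 300 bases, held a string in 5 and none in 5. Of the 5 opened ones printed here, 4 are among the former. Over whole peaks, exons included, the Cxcr4 start peak also held an NF-kB string and the Cxcl16 one a TEAD string.
Cxcl15 start, opened: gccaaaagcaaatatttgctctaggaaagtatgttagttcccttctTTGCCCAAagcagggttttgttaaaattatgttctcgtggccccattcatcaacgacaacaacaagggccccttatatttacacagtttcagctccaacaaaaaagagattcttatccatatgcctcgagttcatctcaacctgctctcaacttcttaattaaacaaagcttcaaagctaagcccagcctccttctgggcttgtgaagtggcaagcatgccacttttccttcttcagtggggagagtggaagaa
Cxcl17 start, opened: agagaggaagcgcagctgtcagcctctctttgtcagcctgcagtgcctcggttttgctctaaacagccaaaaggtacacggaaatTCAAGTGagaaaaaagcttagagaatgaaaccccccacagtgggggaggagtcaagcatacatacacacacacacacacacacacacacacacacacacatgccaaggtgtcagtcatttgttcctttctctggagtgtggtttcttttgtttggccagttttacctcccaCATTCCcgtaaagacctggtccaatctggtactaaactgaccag
Cxcl5 start, opened: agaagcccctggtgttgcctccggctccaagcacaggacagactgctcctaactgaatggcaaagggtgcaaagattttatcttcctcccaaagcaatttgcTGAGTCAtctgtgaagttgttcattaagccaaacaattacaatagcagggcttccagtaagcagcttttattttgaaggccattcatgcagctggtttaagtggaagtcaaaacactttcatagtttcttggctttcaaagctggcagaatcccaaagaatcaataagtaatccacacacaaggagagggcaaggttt
Ackr3 start, opened: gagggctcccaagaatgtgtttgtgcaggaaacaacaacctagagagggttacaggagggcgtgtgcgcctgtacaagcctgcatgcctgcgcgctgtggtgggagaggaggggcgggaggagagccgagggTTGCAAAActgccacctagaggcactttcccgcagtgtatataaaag
Cxcr4 start, opened: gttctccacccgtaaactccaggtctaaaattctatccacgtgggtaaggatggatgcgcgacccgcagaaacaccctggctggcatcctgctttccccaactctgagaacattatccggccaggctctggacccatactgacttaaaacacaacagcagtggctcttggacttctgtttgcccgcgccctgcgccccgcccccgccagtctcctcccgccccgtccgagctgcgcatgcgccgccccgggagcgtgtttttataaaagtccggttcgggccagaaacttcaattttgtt
Cxcl13 start, closed: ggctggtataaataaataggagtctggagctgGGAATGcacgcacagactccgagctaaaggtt

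A further 3 regions, all distal, are shown for Cx3cl1 and Cxcl12, a gene with only opened and one with only closed peaks. The Cx3cl1 peak with the highest count (chr8:94785485-94785784, plus strand, mm10) holds an NF-kB string and a pair of AP-1 strings. A pair of closed peaks upstream of Cxcl12 (chr6:117071709-117071891 and chr6:117110354-117110555, plus strand) holds an AP-1 string each, and the pair was chosen for this string.
Cx3cl1 distal, opened: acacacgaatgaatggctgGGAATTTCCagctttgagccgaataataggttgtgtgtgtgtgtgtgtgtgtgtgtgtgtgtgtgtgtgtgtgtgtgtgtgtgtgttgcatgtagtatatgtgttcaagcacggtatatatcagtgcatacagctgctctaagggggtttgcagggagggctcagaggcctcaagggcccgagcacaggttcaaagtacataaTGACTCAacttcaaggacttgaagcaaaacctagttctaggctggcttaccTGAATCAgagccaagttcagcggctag
Cxcl12 far upstream, closed: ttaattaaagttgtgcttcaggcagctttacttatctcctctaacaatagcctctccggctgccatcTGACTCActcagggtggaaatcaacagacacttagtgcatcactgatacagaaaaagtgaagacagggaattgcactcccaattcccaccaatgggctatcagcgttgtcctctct
Cxcl12 upstream, closed: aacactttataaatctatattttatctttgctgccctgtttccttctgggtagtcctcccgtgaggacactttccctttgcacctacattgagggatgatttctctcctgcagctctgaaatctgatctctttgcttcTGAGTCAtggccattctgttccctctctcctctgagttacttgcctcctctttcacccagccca

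Of the 127 member peaks, 55.1% were opened (95% Wilson interval 46.4 to 63.5), an interval that contains the 50.8% of all listed peaks. Wilson intervals in the text cover counting error only. The share depended on which peaks were counted. Among the 69 member peaks with a mean normalized count of at least 30, 71.0% were opened, beside 58.4% of all listed peaks at that level. Where no start site of a non-coding or other gene lay nearer, 44 of 61 member peaks (72.1%) were opened, beside 57.7% of all such peaks. The peaks left out by the latter choice include all 10 closed peaks of Cxcl12 and all 6 of Xcl1.

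Fewer chemokine genes had a listed peak than genes in general. A peak was assigned to 32 of the 60 genes (53.3%, interval 40.9 to 65.4), against 66.5% of the 21924 protein-coding genes. The peaks of 13 genes were all opened, those of 7 genes all closed, and 12 genes had both. The other 28 genes had no listed peak, which says that no region nearest to them passed the limits of the authors and not that their chromatin was inaccessible. A listed peak with its centre within 1 kb of the start was opened at 8 genes (13.3%, 6.91 to 24.2), against 26.6% of all genes. It was closed at 1 gene (1.67%, 0.295 to 8.86), an interval that contains the 8.43% of all genes.

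**Figure D1:**
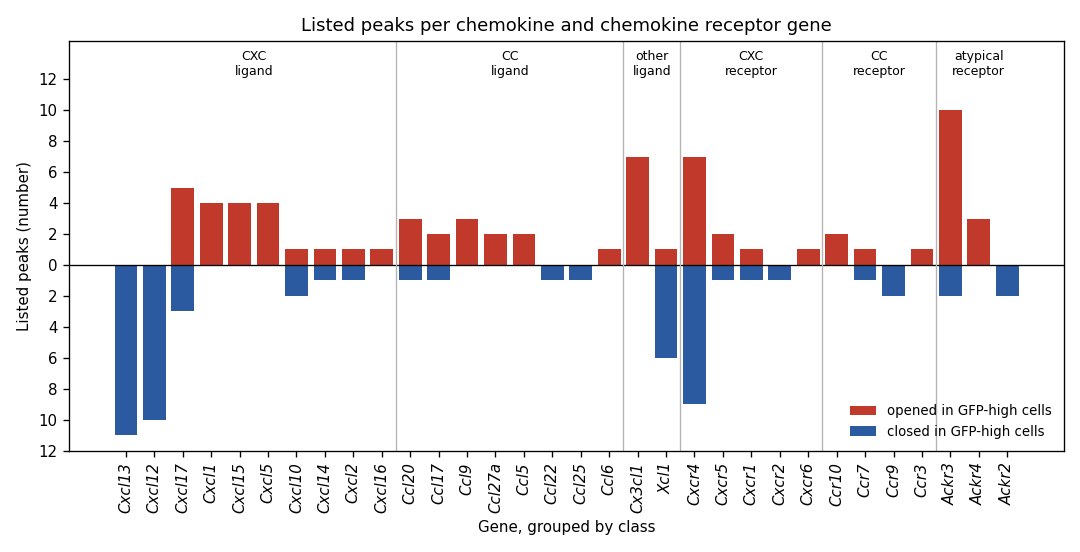
Number of listed peaks (vertical axis) assigned to each of the 32 genes with a peak (horizontal axis, grouped by class), with opened peaks drawn upward and closed peaks downward. Cxcl13 and Cxcl12 have 11 and 10 closed peaks and no opened one, whereas Ackr3 has 10 opened peaks and Cx3cl1 has 7.

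The opened start site peaks belonged to Cxcl5, Cxcl15, Cxcl16, Cxcl17, Ccl27a, Cx3cl1, Cxcr4 and Ackr3, and the closed one to Cxcl13. Of these 8 genes with an opened start, 6 encode ligands, while Cxcr4 and Ackr3 encode a signaling and an atypical receptor of the same ligand, Cxcl12. All values that follow are mean normalized counts over all libraries of both groups, so they measure how strong a region was in the experiment as a whole and not its level in GFP-high or GFP-neg cells. The counts also grow with the width of a peak, and the count per 100 bp is given where the strength of peaks is compared. A mean count of 287 at the Cxcl15 start (chr5:90794033-90794617) corresponds to 49.0 per 100 bp. The values were 237 (40.3 per 100 bp) at Cx3cl1, 235 (36.3) at Cxcl16 and 228 (35.4) at Cxcr4. Lower values were found at Ackr3, with 81.7 (28.7), and Cxcl5, with 39.9 (12.3), which was the weakest of the 10 opened start site peaks. The closed Cxcl13 start region, at 16 (8.91 per 100 bp), was lower than every opened one.

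The 12 CXC ligand genes had 49 peaks, 21 opened and 28 closed (42.9% opened, 30.02 to 56.7, an interval that contains the 50.8% of all listed peaks), and 10 of the 12 had at least 1 peak. Cxcl1, Cxcl2, Cxcl5 and Cxcl15, which lie next to each other on chromosome 5 (90759378 to 90905938) with Cxcl3, had 13 opened peaks and 1 closed peak. Other genes' listed peaks in and within 1 Mb of this cluster were opened in 55.8% of 43 cases (41.1 to 69.6). Cxcl12, Cxcl13 and Cxcl17 held most of the remaining peaks.

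Cxcl15, also known as lungkine, is a neutrophil attractant made by lung epithelium, and its 4 peaks were all opened. Their mean normalized counts were 113 at 4058 bp upstream of the start, 287 at 209 bp upstream, and 38.7 and 145 at 25389 and 38139 bp downstream, so that the start region was the strongest. The last of these lies 345 bp from the start of Gm43086, a gene of another type. Cxcl5, which attracts neutrophils through Cxcr2, also had 4 opened peaks, with counts of 39.9 at 956 bp upstream and of 9.30, 192 and 35.4 at 16.5, 27.7 and 30.5 kb upstream. The strongest of them was thus distal (chr5:90731342-90731964), with 30.8 per 100 bp against 12.3 at the start, and the promoter sequence printed above belongs to a weaker region.

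Cxcl1 and Cxcl2, close relatives that share the receptor Cxcr2, had no listed peak within 1 kb of their start. All 4 peaks of Cxcl1 were opened, with counts between 14.7 and 39.5, and lay between 15 and 47.2 kb upstream. Cxcl2 had an opened peak of 104 (chr5:90900168-90900528) and a closed peak of 54.2 (chr5:90900785-90901076), separated by 256 bp and lying 3.52 and 2.94 kb upstream of the start. They had 28.7 and 18.5 per 100 bp and are the closest pair of opposite peaks among all members. Cxcl3, which belongs to the same subgroup, had no listed peak.

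Cxcl17, a mucosal chemokine of airway epithelium, had 5 opened and 3 closed peaks. The opened ones had counts of 115 at the start (chr7:25412787-25413368, 191 bp upstream) and of 218, 36.4, 12.4 and 123 at 17.6, 20.5, 26.5 and 27.5 kb upstream. The closed ones had counts of 43.9 in an intron of Cxcl17 itself and of 26.5 and 16 upstream, which overlapped with the opened ones. Per 100 bp, the opened peaks ranged from 15.4 to 39.2 and the closed ones from 7.24 to 20.3. Opened and closed peaks of this gene were interspersed along the chromosome, and the closed peak farthest upstream lay 1353 bp from an opened one.

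Cxcl16, a membrane-anchored ligand of Cxcr6 and a scavenger receptor, had 1 opened peak with a count of 235 over its start (chr11:70459550-70460195). The start of Zmynd15 lies within 1 kb of the same peak, so the region cannot be given to either gene alone. Cxcl14, an epithelial chemokine, had an opened peak of 56.3 and a closed peak of 22.6, at 44.3 and 49.5 kb upstream. Cxcl10, an interferon-induced ligand of Cxcr3, had 1 opened peak of 8.40 and closed peaks of 6.72 and 22.7, all in introns of Art3, and its neighbour Cxcl9 had none. The closed pair lies nearer to Cxcl11, which the annotation does not class as protein-coding.

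Cxcl12 had 10 closed peaks and no opened one. It is the main ligand of Cxcr4 and guides stem cells and leukocytes. Every one of its peaks was intergenic, the nearest to the start at 53.6 kb and the farthest at 188 kb, and 9 of the 10 were upstream. Mean normalized counts ranged from 8.46 to 74.8 with a median of 27.7, close to the median of 25.8 over all closed peaks. The strongest was the nearest one, chr6:117114671-117115168. Of the 58 listed peaks of other genes within 1 Mb of Cxcl12, 72.4% were opened (59.8 to 82.2), so the closed series stood in a region where most listed peaks were opened. No peak of Cxcl12 had Cxcl12 as the nearest start site once all gene types were counted.

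Cxcl13 had 11 closed peaks, including the only closed start site peak among the members. It attracts B cells through Cxcr5. Its strongest peak (chr5:96008821-96010283) lay 52601 bp downstream of the start, was 1463 bp wide and had a mean normalized count of 377 (25.8 per 100 bp), at the 99.6th percentile of the closed list and above every other member peak of either list. Per 100 bp it was below the strongest closed peaks of Xcl1 (27.4) and Cxcr4 (26.7) and below many opened ones. The other 10 had counts of 8.45 to 61.6. Here the neighbourhood went the same way, since 19.6% of 46 other listed peaks within 1 Mb were opened (10.7 to 33.2).

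**Figure D2:**
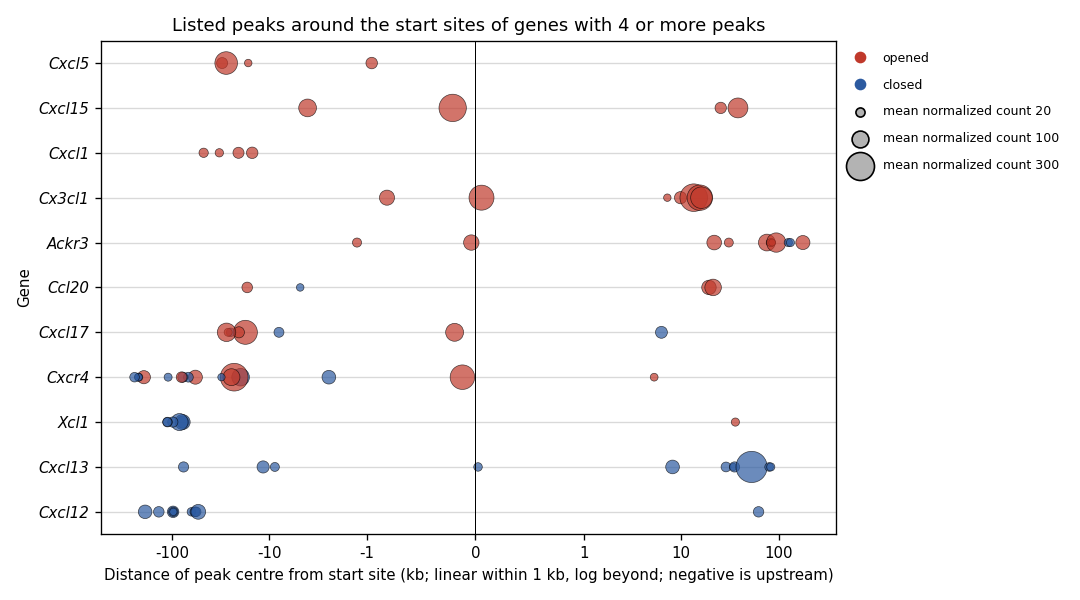
Distance of each listed peak from the start site of its gene in kb (horizontal axis, linear within 1 kb and logarithmic beyond, negative upstream) for the genes with 4 or more peaks (vertical axis), with red for opened, blue for closed, and symbol area that grows with the mean normalized count. The peaks of Cxcl12 lie at least 53.6 kb from the start, whereas Cx3cl1 has opened peaks at the start and a group of strong ones up to 16.1 kb downstream.

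Most CC ligands had no listed peak. Peaks were assigned to 8 of the 23 genes, 13 opened and 4 closed (76.5% opened, 52.7 to 90.4). Over all genes, 66.5% had a peak, and 50.8% of all listed peaks were opened. Of the 13 opened peaks, 6 lie in a stretch of chromosome 11 that was mostly opened, described with Ccl5. The 6 genes from Ccl2 to Ccl1 on chromosome 11, which include the monocyte attractants Ccl2 and Ccl7 and the eosinophil attractant Ccl11, had none, and neither had Ccl3, Ccl4, Ccl19, Ccl21a, Ccl21b, Ccl24, Ccl26, Ccl27b and Ccl28. Other genes had 44 listed peaks in and within 1 Mb of the Ccl2 to Ccl1 cluster, so listed peaks were present around it.

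Ccl27a was the only CC ligand with a listed peak at its start. It encodes a ligand of Ccr10 that attracts T cells to skin. A count of 121 was measured over the start (chr4:41774085-41774343) and one of 105 in an intron 429 bp downstream (chr4:41773529-41773808), both opened. At 46.5 and 37.3 per 100 bp, they were denser in counts than the Cxcl16 start region. Ccl27a, Ccl27b and the Ccl21 genes lie in a cluster with near-identical copies, and reads from such copies may not have been placed uniquely. Whether this affected the Ccl27a counts is not known.

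The T cell and monocyte attractant Ccl5 had opened peaks of 105 and 4.1 at 4306 and 13926 bp upstream. Its neighbours Ccl6 and Ccl9, which bind Ccr1, had 1 and 3 opened peaks, with counts of 34.9 for Ccl6 and of 8.22 to 26.5 for Ccl9. All 6 peaks of this cluster were opened, but so were 82.2% of 101 listed peaks of other genes in and within 1 Mb of it (73.6 to 88.4). Chromosome 11 from 50 Mb on was opened as a whole, with 79.8% of its 3943 other listed peaks in the opened list. The peaks of Ccl5, Ccl6, Ccl9, Cxcl16, Ccr7 and Ccr10 lie there, and 10 of these 11 were opened. Elsewhere 60 of 116 member peaks were opened (51.7%, 42.7 to 60.6), beside 49.3% of all listed peaks outside this stretch. The part of this stretch of chromosome 11 in the result was not tested.

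Ccl20, the ligand of Ccr6 and an epithelial attractant of dendritic cells and lymphocytes, had opened peaks of 70.3 and 96.5 at 19230 and 21205 bp downstream and one of 31.8 upstream. Its closed peak, at 9.57, was the weakest of the 4, also per 100 bp (6.51 against 9.67 to 24.4). Ccl17 and Ccl22 both bind Ccr4 and lie on either side of Cx3cl1. Ccl17 had opened peaks of 13.9 and 31.4 and a closed peak of 108 (chr8:94821109-94821532) that lies in an exon of Ciapin1. Ccl22 had 1 closed peak of 87.4 (chr8:94733881-94734410), and Ccl25, the ligand of Ccr9, had 1 of 16.1. At Ccl17 the closed region was therefore the strongest, also per 100 bp (25.4 against 7.14 and 10.8), unlike at Ccl20.

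Cx3cl1 was the only gene with 5 or more peaks that were all opened. Fractalkine, its product, is a chemokine on a membrane-bound stalk that holds cells with the receptor Cx3cr1. Counts of 78.2 and 237 were measured at the start, 815 bp upstream and 57 bp downstream, and of 9.03 and 46.5 within the gene. Downstream of it, 13431, 15504 and 16113 bp from the start, 3 peaks had counts of 291, 246 and 173, at 44.8, 45.4 and 44.9 per 100 bp. Per 100 bp, these 3 regions were higher than the start region itself, and the first is the region printed above. Among the 112 listed peaks of other genes within 1 Mb, 66.1% were opened (56.9 to 74.2). Xcl1, which attracts dendritic cells with the receptor Xcr1, had the reverse pattern. Its 6 closed peaks lay between 77.0 and 111 kb upstream (counts of 19.3 to 104), the strongest at chr1:165018740-165019117. Its 1 opened peak, of 13.6, lies 41 bp from the start of Gm32569. Neither Cx3cr1 nor Xcr1 had a listed peak.

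**Figure D3:**
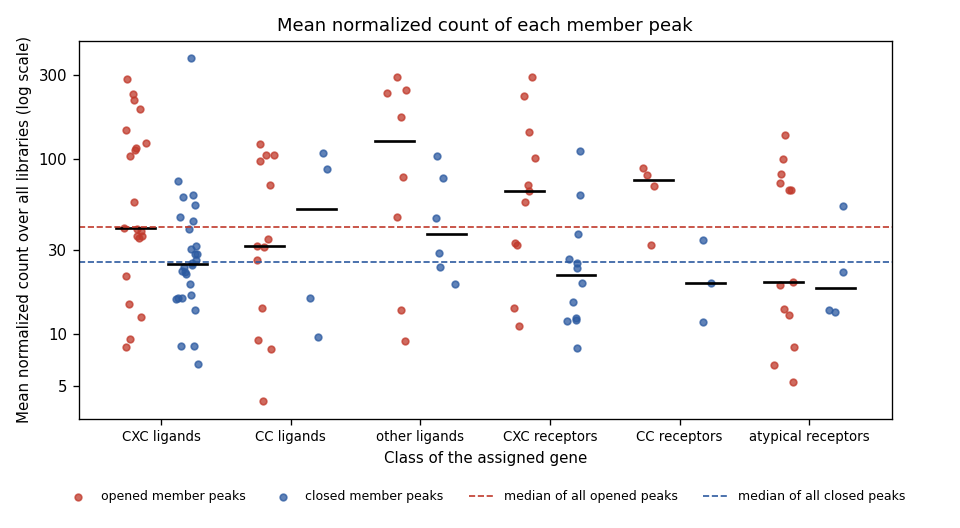
Mean normalized count of each of the 127 member peaks over all libraries (vertical axis, log scale) by the class of its gene (horizontal axis), with black bars at the medians of each class and list and dashed lines at the medians of all opened (40.7) and all closed (25.8) listed peaks. The strongest closed point, at 377, is the distal Cxcl13 peak.

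There were 7 genes with 5 or more peaks, and they held 71 of the 127. In 1 of them (Cx3cl1) all peaks were opened and in 2 (Cxcl12 and Cxcl13) all were closed, while in general 13.4% of genes with that many peaks had only opened and 13.1% only closed ones. Cxcl12 was the gene whose opened share lay farthest from its neighbourhood, at 0% of 10 against 72.4%. Xcl1 followed, with 14.3% of 7 against 54.3% of 94. Ackr3 and Cxcl17 had shares of 83.3% and 62.5% against 72.3% and 50.7%, differences that were within their own intervals.

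**Figure D4:**
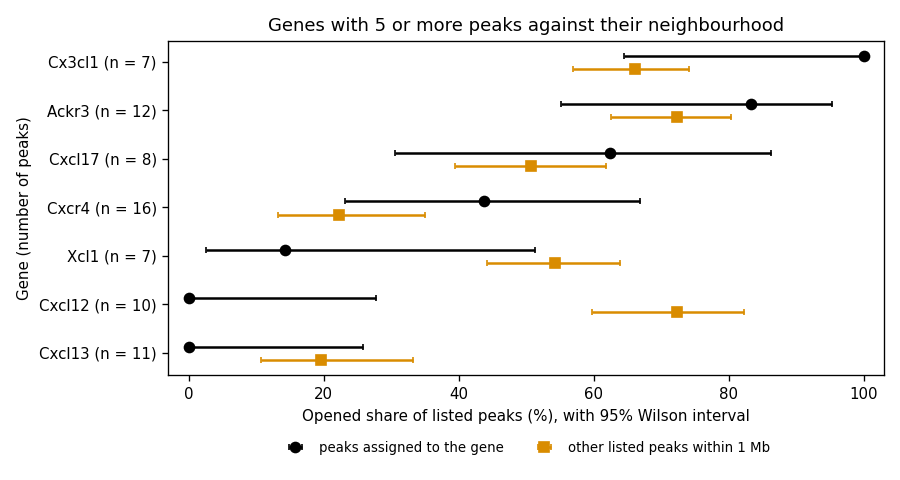
Share of listed peaks that were opened, in percent with 95% Wilson intervals (horizontal axis), for the peaks assigned to each of the 7 genes with 5 or more peaks (black) and for other genes' listed peaks within 1 Mb (orange). The intervals do not overlap at Cxcl12, with 0% against 72.4%, and they overlap at the other 6 genes.

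Among the signaling receptors, Cxcr4 carried most peaks. CXC receptors had 23 listed peaks, 11 opened and 12 closed, and 16 of them (7 opened, 9 closed) belonged to Cxcr4, the receptor of Cxcl12 in cell homing and metastasis. Counts at its opened peaks were 228 at the start (chr1:128592088-128592730), 294 at 22951 bp upstream (chr1:128614743-128615740) and 101 at 24472 bp upstream, and between 11.1 and 65.5 at the other 4. Per 100 bp the start region was the highest of these, with 35.4 against 29.4 and 26.4. Its closed peaks had counts of 8.28 to 111, the strongest (chr1:128611814-128612227, 26.7 per 100 bp) lying 2515 bp from the opened peak with the highest count. Opened and closed regions therefore lay side by side at this gene, and their counts summed to 788 over the 7 opened and 293 over the 9 closed ones. The share of opened peaks, 43.8% of 16 (23.1 to 66.8), stood beside 22.2% of 54 for other genes within 1 Mb (13.2 to 34.9).

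The other receptors had few peaks and none at a start site. Cxcr5, the receptor of Cxcl13 on B cells, had an opened peak of 142 in its own intron, another of 14.0 and a closed one of 19.5. Cxcr1 had 1 opened (33.2) and 1 closed (15.1) peak, and Cxcr2, the neutrophil receptor of Cxcl1, Cxcl2 and Cxcl5, had 1 closed peak of 37.1 in its own exon. Cxcr6 had 1 opened peak of 70.8 in an intron of Fyco1. Cxcr3 had none. CC receptors had 7 peaks at 4 of 11 genes. Ccr10, the receptor of Ccl27a, had opened peaks of 32.0 and 88.4, both in its exons. Ccr3, an eosinophil receptor, had 1 opened peak of 70.1, and Ccr7, which guides cells into lymph nodes, had an opened peak of 81.2 and a closed one of 19.6. Ccr9 had closed peaks of 34.5 and 11.7. Those without a listed peak included Ccr1, Ccr2, Ccr4 and Ccr6.

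The atypical receptors had 17 peaks, 13 opened and 4 closed (76.5% opened, 52.7 to 90.4), beside 50.8% of all listed peaks. Ackr3, which takes up Cxcl12, accounted for 12 of the 17, with 10 opened and 2 closed ones, and 72.3% of other genes' listed peaks within 1 Mb of it were opened. Its opened peaks ran from 1264 bp upstream to 176540 bp downstream of the start, with counts of 137 at 94072 bp, 99.6 at 75432 bp and 81.7 at the start, of which the start was the highest per 100 bp (28.7 against 25.3 and 17.6). The closed peaks, of 13.7 and 13.3, lay between opened ones at 125093 and 131533 bp downstream. Ackr4, a scavenger of Ccl19, Ccl21 and Ccl25, had 3 opened peaks (8.44, 66.3 and 12.8) in introns of Acad11. Ackr2, a scavenger of inflammatory CC chemokines, had 2 closed peaks (22.7 and 53.3), and Ackr1 had none.

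Set side by side, ligands and their receptors had peaks in the same or in different lists. For Cxcl12 the ligand had 10 closed peaks, Ackr3 had 10 of 12 opened and Cxcr4 had 7 of 16 opened. For Cxcl13 and Cxcr5 the ligand had 11 closed peaks and the receptor 2 opened and 1 closed. All peaks were opened for Cxcl16 and Cxcr6 (1 each) and for Ccl27a and Ccr10 (2 each), and closed for Ccl25 and Ccr9 (1 and 2). The receptors Cx3cr1, Xcr1, Ccr4 and Ccr6 had no listed peak although their ligands did. These are counts of regions, and no test was made of them. Over all classes, 42 of 80 ligand peaks were opened (52.5%, 41.7 to 63.1) and 15 of 30 signaling receptor peaks (33.2 to 66.8%), both at about the 50.8% of all listed peaks.

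Opened member peaks were stronger and nearer to their genes than closed ones, as were listed peaks in general. Mean normalized counts had a median of 56.3 (interquartile range 19.2 to 105) at the 70 opened member peaks and of 24.0 (16 to 43.9) at the 57 closed ones, against 40.7 and 25.8 over all opened and all closed peaks. Per 100 bp, the medians were 14.9 and 9.82 for members and 14.4 and 10.8 for all. The median distance to the start was 15.3 kb for opened and 49.5 kb for closed members, against 17.5 and 42.4 kb. Start site peaks made up 14.3% of opened members (10 of 70, 7.95 to 24.3) and 1.75% of closed members (1 of 57, 0.310 to 9.29), against 18.8% and 6.74%. By position, 55 opened and 49 closed member peaks were intergenic.

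In the central 200 bp, AP-1 was the most frequent of the 7 strings in opened and in closed member peaks, as it was in all closed peaks. TGANTCA was found in 18 of 57 closed member peaks (31.6%, 21 to 44.5), an interval that contains the 26.4% of all closed peaks. The 18 peaks included 6 of the 10 Cxcl12 peaks, a pair of which is printed above, 4 of the 11 Cxcl13 peaks and 3 of the 7 Xcl1 peaks. Among opened member peaks it was found in 13 of 70 (18.6%, 11.2 to 29.2), beside 10.6%, and 3 of these were at Cx3cl1. TGTTTAC (FOX) was found in 14.3% of opened members (7.95 to 24.3), beside 6.85%, and GAAANNGAA (ISRE) in 12.9% (6.91 to 22.7), beside 5.91%. For these 3 strings the interval of the opened members lay above the share of all opened peaks in this window. Over whole peaks that held for FOX (17.1%, 10.1 to 27.6, beside 9.50%) but not for AP-1 (14 of 70, 12.3 to 30.8%, beside 15.1%) or ISRE (11.4%, 5.91 to 20.96, beside 9.14%). The FOX matches were spread over Ackr4, Ccl20, Ccl5, Ccr3, Cxcl1, Cxcl15 and Cxcr4. ISRE strings were in 9 opened members in the window and in 8 over whole peaks, because the window reaches past narrow peaks. The 3 strings were picked from 7 in 2 lists, and no allowance was made for the number of comparisons.

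GGAATG (TEAD) was found in 12.9% of opened members (6.91 to 22.7) beside 18.1%, and TTGCNNAA (C/EBP) in 11.4% (5.91 to 20.96) beside 12.3%. Over whole peaks the shares were 25.7% beside 25.4% for TEAD and 21.4% beside 17.4% for C/EBP, so both directions turned with the window. CACTTGA (NKX2) was found in 4.29% (1.47 to 11.9) beside 6.68%. Only 2 opened members held GGANNNTCC (NF-kB) in the central window, a Cx3cl1 and a Cxcr1 peak (2.86%, 0.787 to 9.83), beside 5.80%. Over whole peaks 10 of 70 did (14.3%), beside 9.96% of all opened peaks, so the count depended on the window searched. In closed members the shares were 10.5% beside 8.78% for TEAD, 7.02% beside 9.70% for FOX, 8.77% beside 5.03% for NKX2 and 7.02% beside 4.72% for ISRE. A single closed member held a C/EBP string (1.75%, 0.310 to 9.29, beside 8.61%) and a single one an NF-kB string (beside 4.23%), with intervals that contain the shares of all closed peaks. Over whole peaks these shares were 7.02% beside 11.1% for C/EBP and 3.51% beside 6.04% for NF-kB, and that of NKX2 in opened members was 8.57% beside 9.28%.

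**Figure D5:**
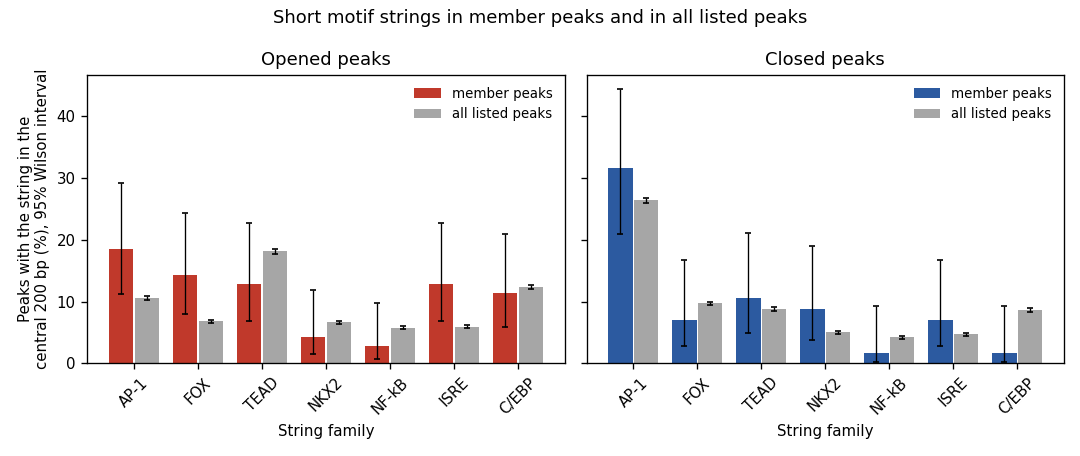
Share of peaks with each short string in the central 200 bp (vertical axis, percent, bars from 0 with 95% Wilson intervals) by string family (horizontal axis), for opened peaks (left) and closed peaks (right), with member peaks coloured and all listed peaks in grey. AP-1 strings were found in 18.6% of opened and 31.6% of closed member peaks.

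An opened start was found at 12 of 19 genes of chemokine signaling and at 1 of the 19 signaling receptors. Over all protein-coding genes the share was 26.6%, and the difference was not tested. The list holds genes that act downstream of the receptors and the protease Dpp4, which acts on the ligands. Of the 19 genes of chemokine signaling, 18 had listed peaks, 67 opened and 63 closed (51.5% opened, 43.0 to 59.96, beside 50.8% of all listed peaks). A closed peak at the start was found at 1 of them, beside 8.43% of all genes. The opened starts included those of the inhibitory G protein subunits Gnai1 (383) and Gnai2 (593), the receptor kinases Grk2 (236) and Grk6 (1015), the arrestin Arrb2 (632) and the GTPases Rac1 (308) and Rac2 (113). Elmo1, which with Dock proteins activates Rac, had the closed start (47.0) and 28 closed peaks of 32. Dock2, its partner in leukocytes, had 5 peaks, all closed. Dpp4, which trims and inactivates several chemokines, is counted among the 12, with an opened start (71.4) and 6 opened peaks of 11.

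Regulators that act upstream of many chemokine genes had more opened than closed peaks. Of 26 genes of NF-kB and inflammatory signaling, 25 had listed peaks, 113 opened and 70 closed (61.7%, 54.5 to 68.5, beside 50.8% of all listed peaks). Their start was opened at 16 and closed at 1, beside 26.6% and 8.43% of all genes. The NF-kB subunits Rel (837), Rela (320) and Relb (812) had opened starts, whereas that of Nfkb1 was closed (36.8). All 11 peaks of Cebpb were opened. Tlr4, the receptor for endotoxin, had an opened start (436) but 22 closed peaks of 26. Tnf and Il6, which encode cytokines that induce chemokines, had 1 peak each, opened at the start with counts of 19.3 and 97.0.

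The sorted populations were checked against their markers. Of 9 neuroendocrine genes, 8 had a closed start and 74 of 86 peaks were closed. All 6 genes of the GFP-high check (Hes1, Rest, Notch2, Yap1, Wwtr1 and Scgb1a1) had an opened start. The sort used GFP made from the Hes1 locus, so Hes1 is not independent of it. The paper links the other genes of this check to the non-NE state in the same model. Over all protein-coding genes, 66.5% had a listed peak, 26.6% an opened start and 8.43% a closed start, and 50.8% of all listed peaks were opened, which is the background of all marker counts here. Chemokine receptors are mostly leukocyte genes, so markers of other cells are given beside them. Before the sort, the cells were stained for CD45, CD31 and TER-119, which mark leukocytes, endothelium and red blood cells and with which a negative gate removes them. Of 15 leukocyte markers, 8 had listed peaks, 17 opened and 11 closed (60.7% opened, 42.4 to 76.4), and Cd68 alone had one at the start (45.9, opened). Ptprc, which encodes CD45, had 11 opened and 5 closed peaks and none at the start, and those without a listed peak included Cd3g, Ms4a1, Itgam, Adgre1 and Tyrobp. For endothelium, 20 of 74 peaks were opened (27.0%, 18.2 to 38.1), with the start of Kdr opened and that of Tek closed. For fibroblasts, 10 of 28 were opened (35.7%, 20.7 to 54.2), with the start of Col1a1 opened and that of Col1a2 closed. The part of other cell types in the chemokine results was not tested.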

How the data were processed

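ATAC-seq of sorted SCLC cells (GFP-high against GFP-neg) was analysed from 2 deposited peak lists. The authors aligned reads to mm10 with Bowtie2 (2.3.4.1 in the submitters' processing notes), removed duplicates, called peaks with MACS2, merged them and counted reads per peak. The signal the authors deposited is the mean over all libraries of counts normalized by DESeq2 (1.28.1). No read counts per library were used, so the depth is unknown. A further 5 columns hold the authors' own comparison (fold change, its standard error, the statistic, p and adjusted p) and were not used. Whether the lanes, or the technical replicate, were summed before the comparison is not given in the sources used here.

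Peak centres were assigned to the nearest protein-coding start site (GENCODE M21 basic, GRCm38.p6), and a start site peak lay within 1 kb. The genome sequence shown is from RefSeq (GRCm38.p6). Strings were searched without mismatches on both strands in the central 200 bp, a window that reaches past peaks narrower than that. Matches were counted once per peak. No test was run; shares have 95% Wilson intervals, which treat peaks as independent, whereas peaks near each other can share a gene and a region. The script was tested on simulated peaks with known assignments. The genes of the rule are named, apart from a few without a listed peak, and some items are not reported here. Positions, as coordinates or distances from the start site, are given for start site peaks and for the 5 strongest peaks per list. Those of a few others were chosen after their values were seen, as were the sequences printed. The members and lists were chosen with earlier results of these data known. Alternatives were other rules of assignment, count minimums, promoter distances and search windows. Computations used Python 3.11.15, numpy 2.4.6, pandas 2.3.3, scipy 1.17.1, pysam 0.24.0 and matplotlib 3.10.9.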

Additional observations from a re-analysis of the deposited data

How the results depend on the processing

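Over 74 combinations of a result and an alternative, 68 values moved by less than the interval of the value reported and 6 moved by more. The opened share of member peaks was 72.1% with the nearest start of any gene type and 71.0% with a mean normalized count of at least 30. The promoter share of closed member peaks was 0% (0 of 20) at that count. Over whole peaks, the opened members held TEAD strings in 25.7% (all opened peaks 25.4%), NF-kB strings in 14.3% (9.96%) and C/EBP strings in 21.4% (17.4%), and a whole peak is mostly wider than the central window. Across the alternatives, 26 to 34 genes had a listed peak and 7 to 10 an opened start. No paired analysis was possible because the files used here hold no values by library, which also left no way to leave out a replicate. The lists hold only peaks that passed the authors' limits, so no share refers to all accessible regions, and stricter limits were not tried because the authors' comparison columns were not used.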

Other observations

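A few genes that belong to these families by function but not by symbol had listed peaks. Ccrl2, a chemokine-binding receptor without classical signaling, had 4 opened peaks, with mean normalized counts of 12.2, 48.0, 33.2 and 28.3, the third of them at its start (chr9:111057398-111057643). Ppbp, a neutrophil attractant that lies in the Cxcl cluster of chromosome 5, had 1 closed peak of 35.7 at 2.57 kb upstream (chr5:90765815-90766089), between the opened peaks of Cxcl5 and Cxcl15. Pf4, beside it, had none.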
